A study of Homo sapiens with 6 samples.

Results

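NRF2, the transcription factor encoded by NFE2L2, and a set of its known target genes were followed after EZH2 knockdown in the human mucosal melanoma line HMV-II. The set holds 9 genes, NFE2L2, KEAP1, NQO1, TXNRD1, SRXN1, PGD, ME1, OSGIN1 and AKR1C1, found by symbol among the 30015 genes of the expression table. Poly-A RNA was sequenced from 3 Vector libraries and 3 shEZH2 libraries. The Vector cells carried a scrambled control shRNA and the shEZH2 cells an shRNA against EZH2, a histone methyltransferase, both introduced by lentivirus and kept as stable lines under puromycin. A single shRNA group was compared, so an effect of this shRNA other than on EZH2 cannot be told apart from EZH2 depletion. Nothing states that the libraries came from separate cultures, so the p-values measure only the spread between these libraries, which may be technical.

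KEAP1 binds NRF2 and hands it to a CUL3 and RBX1 ubiquitin ligase, so NRF2 protein is short-lived in unstressed cells. Electrophiles and oxidants block KEAP1, and NRF2 then accumulates, pairs with a small MAF protein and binds antioxidant response elements near its target genes. Most of the targets in the set spend or restore NADPH: PGD and ME1 make it, while NQO1, TXNRD1, SRXN1 (through thioredoxin) and AKR1C1 draw on it. Since KEAP1 acts on NRF2 protein, the NFE2L2 transcript is not a measure of NRF2 activity.

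The label was checked first on EZH2 itself, which had 483, 437 and 552 normalized counts in the Vector libraries and 237, 247 and 225 in the shEZH2 libraries, a log2 fold change of -1.04 (SE 0.145, limma adjusted p = 0.0142). A normalized count is the number of reads on a gene divided by a size factor of its library, and depth ran from 13400290 to 19128939 reads per library. Each of the 8 melanocyte lineage markers checked was detected, with no single value under 196.8 normalized counts. However, TYRP1 had a log2 fold change of 1.68 (limma adjusted p = 0.00317) and TYR of -0.97 (adjusted p = 0.0532). MLANA stood at 0.88 (adjusted p = 0.214) and at 0.39 without Vector replicate 2. MITF at 0.23, SOX10 at -0.26, PMEL at -0.10, DCT at -0.15 and S100B at 0.855 had adjusted p-values from 0.282 to 0.795. The 2 of 4 leukocyte markers in the table summed to at most 22.1 in any library, and the 2 of 3 endothelial markers to at most 67.5. The 2 of 4 keratinocyte markers in the table summed to 128.1 to 528.1 in Vector and 404.1 to 679.9 in shEZH2 libraries, and of these KRT10 alone averaged 10 or more, at 0.59 (adjusted p = 0.520) and -0.09 without Vector replicate 2. Of 4 fibroblast markers, LUM had a log2 fold change of 0.74 and COL1A2 of -0.83, and the 4 summed to 175.8 to 243.6 in Vector and 244.7 to 306.5 in shEZH2 libraries. The part of these markers in the results was not tested. In bulk RNA, fewer cells of a type and less RNA per cell cannot be told apart. Vector replicate 2 stood apart from the other 2 Vector libraries. With genes split into 5 equal classes by length, its median log2 deviation from the gene means was -0.49 in the shortest and 0.37 in the longest class, against 0.13 and -0.03 in Vector replicate 1 and, the opposite way and smaller, 0.24 and -0.20 in shEZH2 replicate 1. The mean chi-square per gene was 119 and 116 against Vector replicates 1 and 3, which differed from each other by 2.15, and it was 23.4 and 14.2 for shEZH2 replicate 1 against the other shEZH2 libraries. The log2 fold changes that follow are therefore given over all libraries and without that library. Without it the Vector group holds only replicates 1 and 3, which lay close together. The intervals and adjusted p-values of that fit rest partly on this narrow spread.

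The antioxidant response element was looked for in the promoter sequences, because members that share a regulator can be read against the letters it is known to bind. The RefSeq windows ran from 250 bases before to 50 bases after each annotated start (GRCh38.p14), 12 windows for the 9 genes. The core TGACNNNGC, searched on both strands, stood in 5 of these 12 windows, those of KEAP1, TXNRD1, PGD and ME1, and in 13.3% of 35116 windows of the same length genome-wide. The matches below are shown with 10 bases on each side. They are 5 of the 8 matches found, at least 1 for each of the 4 genes. Capitals mark the match, which is read on the other strand in PGD, KEAP1 and the second TXNRD1 window.
PGD, chr1:10398853-10398881, plus strand: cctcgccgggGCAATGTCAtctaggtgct
TXNRD1, chr12:104215670-104215698, plus strand: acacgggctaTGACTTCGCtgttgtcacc
TXNRD1, second annotated start, chr12:104286920-104286948, plus strand: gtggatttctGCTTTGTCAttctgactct
KEAP1, chr19:10502784-10502812, minus strand: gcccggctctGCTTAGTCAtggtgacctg
ME1, chr6:83431170-83431198, minus strand: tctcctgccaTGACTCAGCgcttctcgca
The first capital lay 201 bases before the annotated start in PGD, 99 and 102 in TXNRD1, 31 in KEAP1 and 137 in ME1. The ME1 match also spells the AP-1 core TGANTCA, which overlaps it and which 7.71% of all windows hold. OSGIN1 held the AP-1 core and no match to TGACNNNGC, and the windows of NFE2L2, NQO1, SRXN1 and AKR1C1 held neither. A match describes letters in a window and is not a binding site, and elements farther from the start were not searched.

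Of the 9 genes, 7 averaged 10 or more normalized counts over the libraries and entered the test, and ME1 and AKR1C1 did not. A gene was called when its unadjusted p was under 0.05 and its fold change was above 1.5 in either direction. PGD was called higher, against 7.55% of the 15251 genes tested, and OSGIN1 and SRXN1 were called lower, against 7.07%. PGD and OSGIN1 also had an adjusted p under 0.05, as did 4.12% of all genes tested. The groups did not overlap for TXNRD1, SRXN1, PGD and OSGIN1, 4 of the 7, against 34.8% of all genes tested. The median log2 fold change of the 7 was -0.48, with 6 of 7 below 0, beside a median of 0.04 over all genes tested, of which 46.5% were below 0. Without Vector replicate 2, 1 of the 7 was called higher and 3 called lower (12.8% of 15123 genes were called in either direction), and 7 had an adjusted p under 0.05 (19.1% of those genes). With any other single library left out, 0 of the 7 had an adjusted p under 0.05, and 4 to 182 genes of the table did.

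Levels were compared between the 9 genes per length, as RPKM (reads per kilobase of gene model, scaled to the library's total reads). In Vector libraries NQO1 was highest at 321.5 ± 109.3 (SD, n = 3), followed by TXNRD1 at 196.3 ± 10.3. Their libraries overlapped only through Vector replicate 2, with NQO1 at 195.4 there against at most 204.0 for TXNRD1. OSGIN1 at 36.7 ± 6.97, NFE2L2 at 32.2 ± 5.37 and PGD at 28.2 ± 0.629 came next. These neighbours also overlapped only through Vector replicate 2. KEAP1 at 15.2 ± 2.07 and SRXN1 at 9.89 ± 1.18 followed and did not overlap. The order changed in the shEZH2 libraries, where PGD at 53.9 ± 2.01 stood above NFE2L2 at 26.1 ± 4.03 and OSGIN1 at 16.1 ± 2.19, with no overlap between these neighbours. NQO1 at 221.7 ± 9.41 and TXNRD1 at 146.6 ± 12.4 remained the highest pair and did not overlap. KEAP1 at 12.0 ± 1.89 and SRXN1 at 6.15 ± 2.11 stayed below OSGIN1. AKR1C1 stayed under 0.06 and ME1 under 0.04 in every library.

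**Figure D1:**
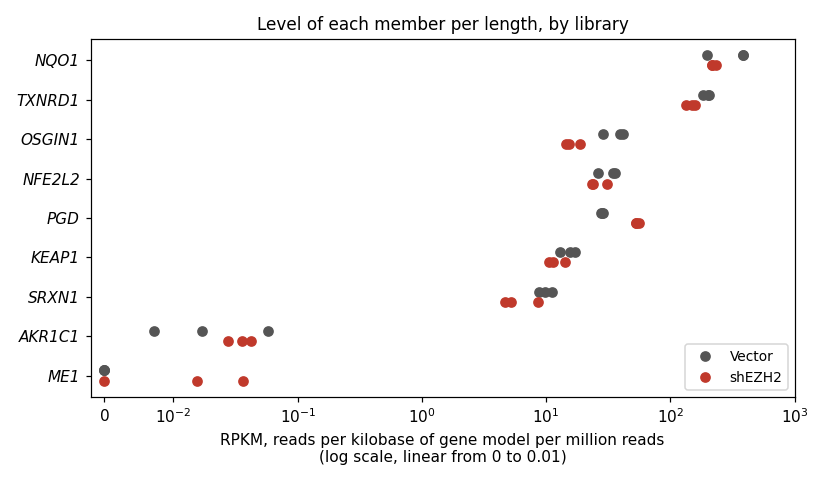
Level of each of the 9 genes per length, in RPKM on a log axis that is linear from 0 to 0.01, with 1 point per library in grey for Vector and red for shEZH2. NQO1 and TXNRD1 sit above 100 in every library, and PGD moves from 28.2 to 53.9 on average while OSGIN1 moves from 36.7 to 16.1.

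The regulators did not pass the call in either direction. NFE2L2 (ENSG00000116044, chromosome 2 from 177227595 to 177392697, minus strand, GRCh38) had 3405, 2423 and 3464 normalized counts in the Vector libraries and 2163, 2806 and 2252 in the shEZH2 libraries. Vector replicate 2 lay below shEZH2 replicate 2, and the groups overlapped. The log2 fold change was -0.35 (95% interval -0.80 to 0.09, adjusted p = 0.302), and the exact two-sided permutation test gave p = 0.2, where 0.1 is the smallest p that 3 against 3 libraries allow. Without Vector replicate 2, which stood at 70.5% of the mean of the other Vector libraries, the log2 fold change was -0.52 with an adjusted p of 0.00785 (1.57e-05 to 0.579 over the 17 alternatives that refit the data), still short of the 1.5-fold threshold. NFE2L2 overlaps AGPS on the opposite strand (mean 1976 normalized counts), but only from 177392644, where AGPS starts, to 177392697. It also overlaps AC019080.1 on its own strand (57.3). Whether reads were counted by strand is not given in the sources used here.

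KEAP1 (ENSG00000079999, chromosome 19 from 10486120 to 10503741, minus strand) had 1048, 759.1 and 953 normalized counts in Vector and 818.9, 650.8 and 627.3 in shEZH2 libraries. Again the groups overlapped through Vector replicate 2, which lay below shEZH2 replicate 1. Its log2 fold change was -0.39 (95% interval -0.81 to 0.02, adjusted p = 0.232), and -0.53 without that library (adjusted p = 0.0138, range 1.34e-05 to 0.523). The exact permutation test gave p = 0.2.

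NQO1, which reduces quinones with NADH or NADPH and is a widely used marker of NRF2 activity, depended most on Vector replicate 2. NQO1 (ENSG00000181019, chromosome 16 from 69706996 to 69726951, minus strand) had 20410, 9918 and 20380 normalized counts in Vector and 11620, 10720 and 11100 in shEZH2 libraries. The 3 shEZH2 libraries sat close together, at a mean of 11150 ± 450.0 (SD, n = 3), and 2 Vector libraries sat far above them, but Vector replicate 2 lay below every shEZH2 library. The log2 fold change over all libraries was -0.53 (95% interval -1.20 to 0.14, adjusted p = 0.312), with an exact permutation p of 0.4. Without Vector replicate 2, at 48.6% of the mean of the other 2, it was -0.87 (95% interval -1.06 to -0.68, adjusted p = 3.12e-05, range over 17 alternatives 4.32e-07 to 0.524) and NQO1 was called lower.

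TXNRD1 encodes cytosolic thioredoxin reductase, a selenoprotein that passes electrons from NADPH to thioredoxin. TXNRD1 (ENSG00000198431, chromosome 12 from 104215779 to 104350305, plus strand) had 22030, 19320 and 22180 normalized counts in Vector and 13680, 16060 and 15870 in shEZH2 libraries. Every shEZH2 library lay below every Vector library. The log2 fold change of -0.48 (95% interval -0.85 to -0.11, unadjusted p = 0.0176, adjusted p = 0.133) was under the 1.5-fold threshold, and TXNRD1 was not called with any of the 17 alternative fits. Without Vector replicate 2 it was -0.54 (adjusted p = 0.00200, range 4.93e-05 to 0.351). The processed pseudogene RPL18AP3 lies within TXNRD1 on the same strand (mean 895.5 normalized counts), as does EID3 (29.0). The antisense gene AC089983.1 lies within it on the opposite strand (14.8).

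SRXN1, sulfiredoxin, repairs peroxiredoxins whose active cysteine has been overoxidized. SRXN1 (ENSG00000271303, chromosome 20 from 646615 to 653370, minus strand) had 435.0, 367.9 and 485.7 normalized counts in Vector and 355.2, 215.6 and 197.6 in shEZH2 libraries. The groups did not overlap, but shEZH2 replicate 1 stood close to Vector replicate 2 and well above the other shEZH2 libraries. SRXN1 fell by 0.78 on the log2 scale (95% interval -1.35 to -0.22, adjusted p = 0.117), which was 1.72-fold lower. It was called in 15 of 17 alternative fits and lost the call without shEZH2 replicate 2 (-0.69) or without shEZH2 replicate 3 (-0.62). It was not called either when the adjusted p or a log2 threshold of 1 was required. The value was -0.89 without Vector replicate 2 (adjusted p = 0.00968, range 1.08e-06 to 0.363). SRXN1 overlaps AL121758.1 on the same strand (mean 1.95).

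OSGIN1, an oxidative stress response gene tied to growth inhibition, changed most of the 7 tested. OSGIN1 (ENSG00000140961, chromosome 16 from 83948282 to 83966332, plus strand) had 2376, 1554 and 2212 normalized counts in Vector and 989.3, 770.6 and 823.9 in shEZH2 libraries. Even the lowest Vector library, replicate 2, was well above the highest shEZH2 library. OSGIN1 fell by 1.23 on the log2 scale (SE 0.196, 95% interval -1.69 to -0.78, adjusted p = 0.0211), which was 2.35-fold lower. It was called in 17 of 17 alternative fits, with values from -1.45 to -1.11. The value was -1.42 without Vector replicate 2 (adjusted p = 8.08e-06, range 1.31e-09 to 0.147). AC009119.2 overlaps OSGIN1 on the same strand (mean 19.4 normalized counts).

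PGD moved the other way. It encodes 6-phosphogluconate dehydrogenase, which makes NADPH in the oxidative pentose phosphate pathway. PGD (ENSG00000142657, chromosome 1 from 10398592 to 10420144, plus strand) had 1402, 1277 and 1352 normalized counts in Vector and 2562, 2380 and 2477 in shEZH2 libraries. The groups were far apart and the spread within each was small, with means of 1344 ± 63.0 and 2473 ± 91.4 (SD, n = 3). PGD rose by 0.88 on the log2 scale (SE 0.121, 95% interval 0.60 to 1.16, adjusted p = 0.0141), which was 1.84-fold higher, and was called in 17 of 17 alternative fits, though not with a log2 threshold of 1. Vector replicate 2 was at 92.7% of the mean of the other Vector libraries for PGD, and without it the value was 0.84 (adjusted p = 8.13e-05, range 2.43e-09 to 0.140). No other gene of the table overlaps PGD or NQO1.

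**Figure D2:**
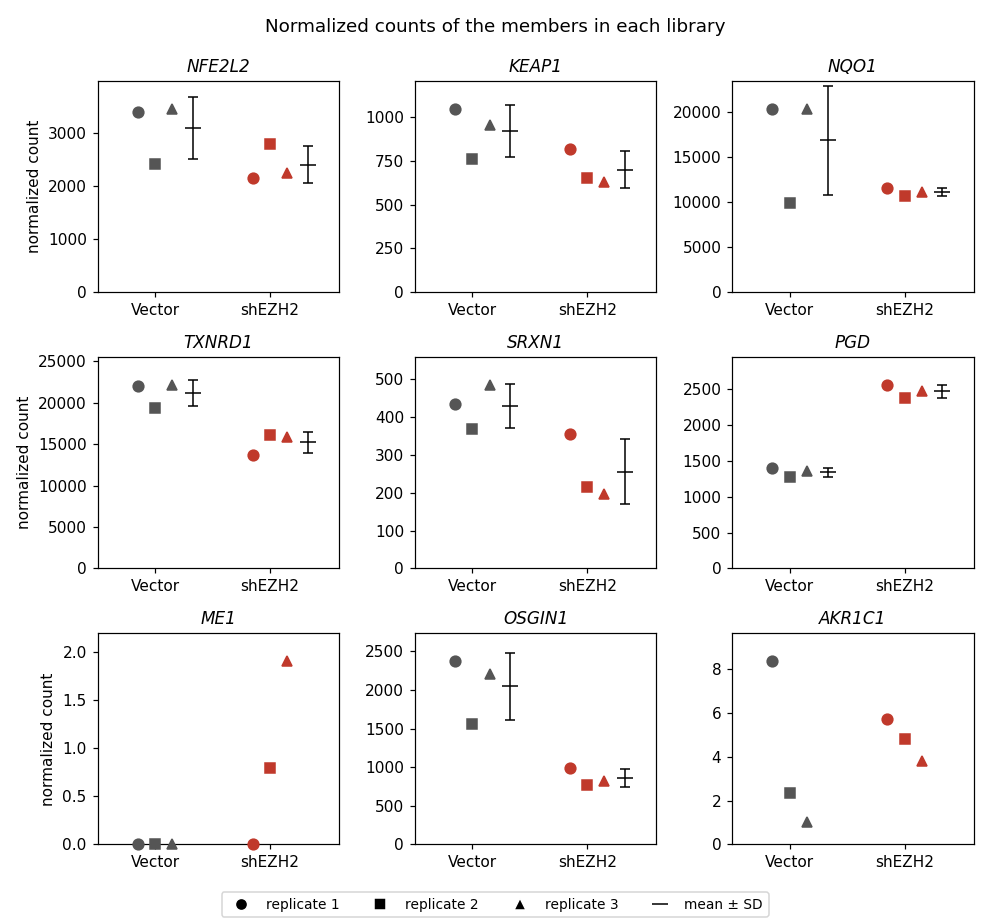
Normalized counts of the 9 genes, 1 panel per gene with its own linear axis from 0, in 3 Vector (grey) and 3 shEZH2 (red) libraries, with circle, square and triangle for replicates 1, 2 and 3 and the mean ± SD beside them where the gene was tested. The square of Vector replicate 2 is the lowest Vector point for each of the 7 tested genes, at 9918 against 20410 and 20380 for NQO1, and PGD is the only one of the 7 with every shEZH2 library above the Vector libraries.

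ME1 and AKR1C1 were near or at the limit of detection. ME1, the cytosolic malic enzyme that makes NADPH (ENSG00000065833, chromosome 6 from 83210389 to 83431071, minus strand), had 0 reads in each Vector library and 0, 1 and 2 reads in the shEZH2 libraries. A count of 0 allows up to 3 reads, or 0.188 to 0.224 RPM (reads scaled to the library's total) in the Vector libraries, so ME1 was at or under this limit in each group and no fold is given. AKR1C1, which reduces ketosteroids and other carbonyls (ENSG00000187134, chromosome 10 from 4963253 to 4983283, plus strand), had 8, 2 and 1 reads in Vector and 6, 6 and 4 reads in shEZH2 libraries, and the groups overlapped. Its near-identical neighbours were as low, AKR1C2 with 0, 4 and 0 reads against 1, 1 and 0, and AKR1C3 with 9, 3 and 5 against 5, 12 and 3, and reads may be split between these copies. A difference in these genes was not detectable at this depth, and these limits cover counting error only.

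**Figure D3:**
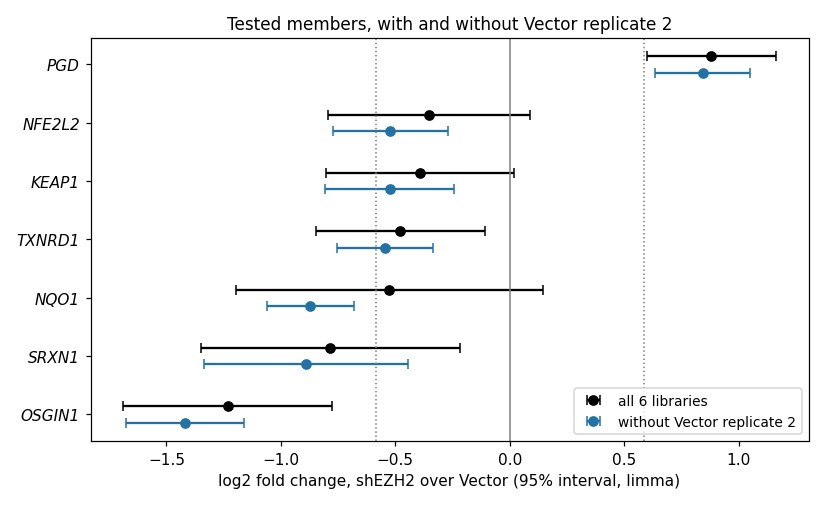
Log2 fold change of shEZH2 over Vector for the 7 tested genes with 95% intervals from limma, over all 6 libraries (black) and without Vector replicate 2 (blue), with dotted lines at the 1.5-fold threshold. PGD lies at 0.88 and 0.84, OSGIN1 at -1.23 and -1.42, and NQO1 moves from -0.53 to -0.87 with an interval that no longer includes 0.

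Of 18 partners that control NRF2 and were tested, 2 were called higher and 2 lower, none with an adjusted p under 0.05. Over all genes tested, 7.55% were called higher, 7.07% were called lower and 4.12% had an adjusted p under 0.05. The median log2 fold change of the partners was -0.19. NFE2L3, a factor of the same family, fell by 0.99 on the log2 scale (adjusted p = 0.0885), and stood at -0.75 without Vector replicate 2. SQSTM1, an autophagy receptor that sequesters KEAP1 and is itself an NRF2 target, fell by 0.73, from 31610, 25910 and 30610 normalized counts to 19470, 15580 and 18050 (adjusted p = 0.0631), and stood at -0.82 without that library. DPP3, a peptidase that also competes for KEAP1, rose by 0.59 (adjusted p = 0.0532) and stood at 0.58 without Vector replicate 2, under the threshold. RBX1, the RING subunit of the ligase, was called higher at 1.09 (adjusted p = 0.201), a value that rests on Vector replicate 2. RBX1 had 497.8, 143.2 and 470.4 normalized counts in Vector and 783.6, 594.9 and 695.1 in shEZH2 libraries, and 0.50 remained without that library. The most abundant partners that were not called were NFE2L1, at -0.57 (adjusted p = 0.116), and MAFF, a small MAF partner of NRF2, at -0.17 (adjusted p = 0.550), or -0.43 and -0.29 without that library. Leaving out Vector replicate 2 left 0 partners called higher and 2 lower, beside 12.8% of all genes called in either direction.

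Among other known NRF2 targets, 26 of the 32 in the table were tested, 0 were called higher and 3 lower, and 1 had an adjusted p under 0.05. The shares over all genes tested were 7.55%, 7.07% and 4.12%. Their median log2 fold change was 0.01, and -0.08 without Vector replicate 2. Over all libraries 46.2% of these 26 targets lay below 0, beside 46.5% of all genes tested. SLC7A11, the cystine transporter that feeds glutathione synthesis, fell by 1.07 (adjusted p = 0.0331), and stood at -0.91 without that library. ABCB6, a porphyrin transporter, fell by 0.70 (adjusted p = 0.126) and ABCC2, a conjugate export pump, by 0.64 (adjusted p = 0.0831), which stood at -0.59 and -0.48 without Vector replicate 2, the latter under the threshold. Glutathione genes and HMOX1 were looked up after the values were seen. GSR at -0.48 (adjusted p = 0.082), GCLM at -0.44 (adjusted p = 0.145) and GCLC at -0.34 (adjusted p = 0.180) were not called, and stood at -0.49, -0.54 and -0.37 without Vector replicate 2. HMOX1, heme oxygenase, was not called at 0.21 (adjusted p = 0.615), and its direction turned to -0.08 without that library. FTH1, ferritin heavy chain and the most abundant of these targets, had 39830, 14690 and 39570 normalized counts in Vector and 29310, 32040 and 28900 in shEZH2 libraries. Its log2 fold change was 0.08 over all libraries and -0.40 without Vector replicate 2, so the direction turned with that library.

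PGD was read beside the other genes of NADPH supply and the pentose phosphate pathway, of which 21 of 22 were tested, 3 called higher and 1 lower, with a median of 0.02. For the 3 that rose, the adjusted p was under 0.05. These counts stand beside 7.55% called higher, 7.07% called lower and 4.12% past the adjusted threshold in the whole table. MTHFD2, a mitochondrial enzyme of folate metabolism, rose by 0.79 (adjusted p = 0.0457), from 4341, 3365 and 4567 normalized counts to 6374, 7477 and 7202, and stood at 0.65 without Vector replicate 2. IDH2, the mitochondrial isocitrate dehydrogenase that makes NADPH, rose by 0.64 (adjusted p = 0.0359), or 0.61 without that library. SHMT1, a cytosolic enzyme of serine and folate metabolism, rose by 0.83 (adjusted p = 0.0416), or 0.70 without it. IDH1, the cytosolic counterpart of IDH2, fell by 0.62 (adjusted p = 0.122), from 6335, 4324 and 6644 normalized counts to 3351, 4024 and 3726, and stood at -0.81 without Vector replicate 2. TKT, transketolase, was not called, at -0.02 (95% interval -0.38 to 0.33) and at 0.03 without that library. SHMT2, mitochondrial and abundant, was at 0.08 (adjusted p = 0.840), and its direction turned to -0.16 without that library. ME3, another malic enzyme, had 2, 6 and 0 reads in Vector and 0 reads in each shEZH2 library.

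TXNRD1 and SRXN1 belong to the thioredoxin and peroxiredoxin system, of which 18 of 19 other genes were tested. Of these, 3 were called higher and 1 lower, beside 7.55% and 7.07% of all genes tested. The other thioredoxin reductases had the opposite sign to TXNRD1. TXNRD2, the mitochondrial form, rose by 0.94 (adjusted p = 0.0914), from 946.4, 523.9 and 974.4 normalized counts to 1837, 1334 and 1398, and by 0.65 without Vector replicate 2. TXNRD3 rose by 0.59 (adjusted p = 0.0714), or 0.67 without that library. Per length, TXNRD1 remained far above TXNRD2 (11.8 ± 2.17) and TXNRD3 (5.11 ± 0.334) in the shEZH2 libraries. NXN, nucleoredoxin, rose by 2.06 (adjusted p = 0.00805), from 17.8, 22.1 and 23.4 normalized counts to 108.5, 80.7 and 85.0, and stood at 2.10 without Vector replicate 2. TXNIP, which binds and inhibits thioredoxin, fell by 0.92 (adjusted p = 0.0466), and stood at -1.10 without that library. The median of the list was 0.41 over all libraries and -0.04 without Vector replicate 2. PRDX5 at 0.71 (adjusted p = 0.499) and PRDX6 at 0.31 (adjusted p = 0.621) were not called, and their directions turned to -0.08 and -0.16 without Vector replicate 2.

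**Figure D4:**
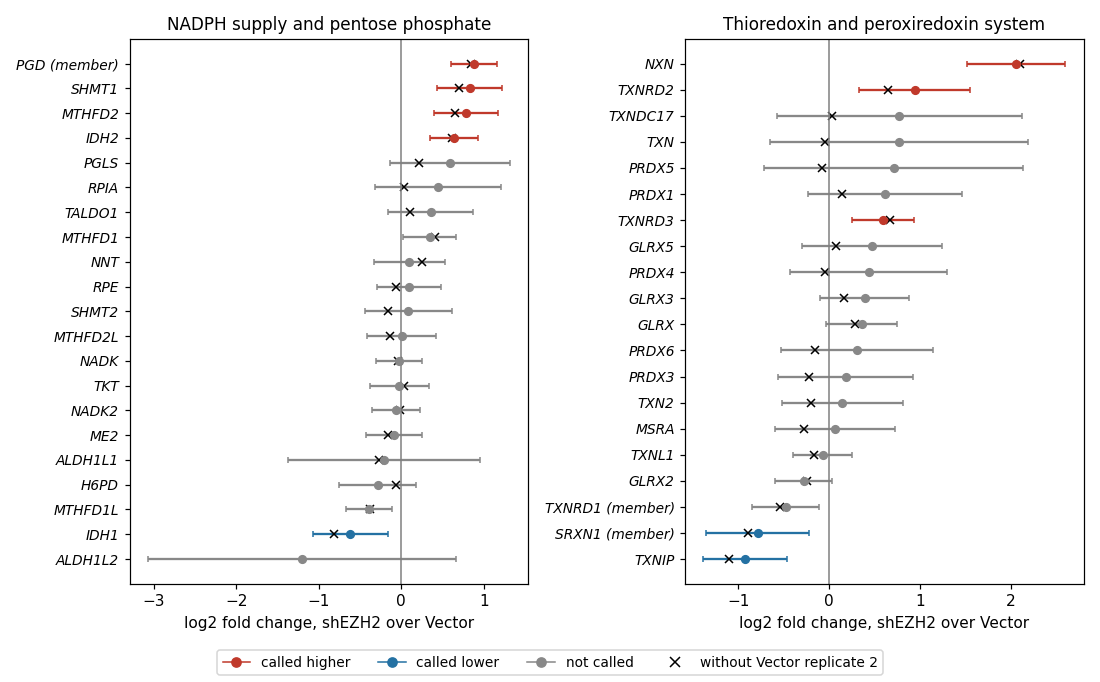
Log2 fold change of shEZH2 over Vector with 95% limma intervals for genes of NADPH supply (left, with PGD) and of the thioredoxin and peroxiredoxin system (right, with TXNRD1 and SRXN1), coloured by call, with crosses for the value without Vector replicate 2. PGD, SHMT1, MTHFD2 and IDH2 are the 4 called higher on the left, and on the right TXNRD1 at -0.48 and TXNRD2 at 0.94 lie on opposite sides of 0.

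Beside NQO1 and AKR1C1, 9 of 14 further aldo-keto, quinone and carbonyl reductases in the table were tested. Of these 9, 1 was called, beside 7.55% of all genes tested called higher and 7.07% called lower. The median log2 fold change of the list was 0.295 over all libraries and 0.002 without Vector replicate 2. AKR1E2 was called higher at 0.60 (adjusted p = 0.210), or 0.63 without Vector replicate 2, but the call held in only 5 of the 16 alternative fits that tested it, with values from 0.39 to 0.71. AKR1B1, aldose reductase, was at 0.51 (adjusted p = 0.268) and AKR1A1 at 0.15 (adjusted p = 0.760). AKR1B1 and AKR1A1 stood at 0.22 and -0.19 when Vector replicate 2 was left out. The lists share genes, 3 between other NRF2 targets and NADPH supply, 2 with the thioredoxin system and 5 with the reductases, so their counts are not separate evidence.

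The genes whose pattern across the 6 libraries lay nearest to that of NFE2L2, by the root mean square difference of centred log2 values among 10654 genes, were TRMT6 (0.0404), GOLT1B (0.0431) and UTP14C (0.0509). TRMT6, for example, had 1368, 998.9 and 1383 normalized counts in Vector and 890.3, 1150 and 980.5 in shEZH2 libraries. Like NFE2L2, each was lowest among the Vector libraries in replicate 2 and highest among the shEZH2 libraries in replicate 2. This likeness follows from how they were chosen and is not a further result.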

How the data were processed

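HMV-II cells were sequenced in 3 Vector and 3 shEZH2 libraries. Reads per gene were counted by the authors with featureCounts v1.5.0-p3, and DESeq2 1.20.0 is named in the submitters' processing notes. The deposited table holds signal values, the authors' counts divided by 1 size factor per library, for 30015 genes. The values were whole multiples of 1 read in 100% of cases (tolerance 0.01 read), so reads were recovered. Library columns carry letters and digits, taken as group and replicate because the deposited group means equal the means of those columns, and 0 library columns were left out. Columns with the authors' own fold changes and p-values were not used. The processing notes name hg19, while the gene coordinates match GRCh38, and these are printed. The aligner and the strand setting are not given in the sources used here.

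The groups were compared with limma 3.58.1 (eBayes with trend) on log2(normalized count + 1), over 15251 genes with a mean of at least 10. Fold changes are on this scale, which understates low genes. Calls needed an unadjusted p under 0.05 and a fold change above 1.5, and Benjamini-Hochberg adjustment ran over all genes tested. Exact two-sided permutation tests used 20 arrangements of the libraries. Alternatives were edgeR 4.0.16 and DESeq2 1.42.0 on the recovered reads, other pseudocounts, filters and scalings, a replicate block, removal of a gene length trend, array weights, other thresholds and each library left out. The models were tested on simulated data, which held no outlying library and no gene length trend like those of Vector replicate 2. Analyses ran in R 4.3.3 and Python 3.11.15.

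The genes and lists were chosen with earlier results of these data known. Named genes are EZH2, the 9 genes and up to 5 called genes of each list by size of change. Also named are the 2 most abundant uncalled genes of each list and the AKR1C1 paralogs. So are genes overlapping the 9, and the 3 patterns nearest to NFE2L2 among genes with a mean of at least 100. Of the overlapping genes, those of NFE2L2 and KEAP1 with a mean of at most 12.7 normalized counts were left out. ME3, GSR, GCLM, GCLC, HMOX1 and the markers named fall outside this rule and were chosen after their values were seen. Promoter sequences came from RefSeq (GRCh38.p14). No protein table was used here. Results of 1 gene are not reported here.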

Additional observations from a re-analysis of the deposited data

How the results depend on the processing

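Of 19 alternatives, 17 refit the data and 2 changed the call's threshold. PGD and OSGIN1 kept their direction and call in 17 of the 17 fits, TXNRD1 and NFE2L2 were not called in any, KEAP1 was called with array weights alone (-0.63), and NQO1 with 4: DESeq2 (-0.61), the length trend removed (-0.68), array weights (-0.86) and without Vector replicate 2 (-0.87). SRXN1 was called in 15 of the fits and with neither other threshold. No log2 fold change of EZH2 or of the 7 tested genes reversed.

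Genes with an adjusted p under 0.05 numbered 629, and 1644 with DESeq2, 1286 with the length trend removed and 7128 with array weights. Array weights called 5 of the 7 (with 1391 genes higher and 1260 lower in the table) and gave 7 with an adjusted p under 0.05. With an adjusted p in the call, 345 genes were higher and 279 lower, and with a log2 threshold of 1, 463 and 335, with 1 of the 7, OSGIN1, called. Leaving out 1 library gave 4 to 2888 genes and 0 to 7 of the tested genes with an adjusted p under 0.05, the highest without Vector replicate 2 and 0 of the 7 without any other library, when PGD and OSGIN1 were still called. The cause was not tested. With the replicate block, 1322 genes were higher, 1112 lower, 424 adjusted, and 3 and 2 of the 7 as before. Same-numbered deviations correlated at 0.28, 0.22 and -0.11. Vector replicates 1 and 3 gave nearly the same values, 0.28 and 0.25 with shEZH2 replicate 1 and -0.13 and -0.11 with shEZH2 replicate 3. These correlations therefore cannot decide whether the numbers mark pairs, and the main fit used none. Depth limits ME1, ME3 and the AKR1C genes.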
